A study of Mus musculus with 8 samples.

Results

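The Zbtb, Klf and Sp families of zinc finger transcription factors were examined in mouse cortex. Members were all genes of the deposited gene table whose symbol is Zbtb, Klf or Sp followed by a number, with Klf9 left out. The rule found 42 transcripts of 41 genes among 10588 genes tested, made up of 29 Zbtb, 9 Klf and 4 Sp transcripts. Zbtb44 is present as 2 transcripts, whose reads come from the same gene. Members of these families that have no symbol in that table were not analysed here.

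Poly(A)+ RNA from the right cortex was sequenced in 4 bigenic and 4 nontransgenic C57BL/6 mice, 3 of the 4 male in each group. Bigenic mice carried Camk2a-tTa, a tetracycline transactivator under a promoter of forebrain excitatory neurons, and deltaNLS-hTDP-43, a human TDP-43 that lacks a working nuclear localization signal and is made only without doxycycline. Nontransgenic controls carried neither transgene. All mice of both groups ate doxycycline until 28 days of age and were taken 10 days after it was stopped, so that the diet was shared and the transgenes were not. No sequenced group carried a single transgene, so effects of the transactivator cannot be told apart from those of human TDP-43. The model drives the protein in neurons that use this promoter, while the RNA came from all cells of the cortex, and fewer cells of a type cannot be told apart from less RNA per cell.

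A Zbtb protein joins an amino-terminal BTB domain, through which it pairs and binds corepressors such as NCoR, to C2H2 zinc fingers that read DNA. Klf and Sp proteins share a block of C2H2 fingers at the carboxy terminus, bind GC boxes and CACCC boxes in promoters, and differ in the activating or repressing regions in front of the fingers. Several act in the brain: Sp4 is enriched in neurons, and some Klf genes respond to neuronal activity or hormones.

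Each Klf and Sp member encodes 3 C2H2 fingers in a region of 81 residues. Identity within this region ran from 50.6% between Klf8 and Sp2 to 92.6% between Sp3 and Sp4, and was 91.4% between Klf3 and Klf12. Zbtb members encode between 2 and 14 fingers with a median of 4. Zbtb41 has 14, Zbtb17 and Zbtb40 have 13, and Zbtb10 and Zbtb43 have 2. At least 95% of the 50-base windows in the exons occurred once in the genome for 39 of 41 annotated transcripts. The exceptions were Zbtb2, with 80.4%, and Zbtb5, with 87.0%.

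GC boxes, to which Sp and Klf proteins bind, also lie in the promoters of the members themselves. RefSeq promoter windows (GRCm38.p6, 250 bases before to 50 after the start) matched 35 of the 41 symbols, with 43 windows. The letters GGGCGG, on either strand, were found in 34 of the 43 windows (79.1%), in 63.7% of the 9757 windows of genes in the deposited gene table and in 35.7% of all 32851 windows. Members that rose in the bigenic mice had the letters in 7 of 8 windows and the other members in 27 of 35. A gene with several starts counts once per window. Zbtb38 has more than 1 of the 8 windows and Zbtb10 has none, so these are not counts of genes. The letters CCCACCC of a CACCC box were in 30.2% of member windows and 21.4% of windows of genes in that table. Such a match describes the letters only. The 100 bases before the start are shown for the members that rose and have a single RefSeq window, since the results below turn on these members, with GGGCGG and its reverse complement in capitals.
Zbtb34 (chr2:33431325-33431424, minus strand): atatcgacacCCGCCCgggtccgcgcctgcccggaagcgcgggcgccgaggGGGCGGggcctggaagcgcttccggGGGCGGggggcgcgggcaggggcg
Zbtb39 (chr10:127739430-127739529, plus strand): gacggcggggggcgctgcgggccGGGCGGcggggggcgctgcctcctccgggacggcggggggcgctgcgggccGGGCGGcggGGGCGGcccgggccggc
Zbtb41 (chr1:139422283-139422382, plus strand): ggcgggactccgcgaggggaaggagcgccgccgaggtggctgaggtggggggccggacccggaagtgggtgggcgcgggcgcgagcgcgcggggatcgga
Zbtb43 (chr2:33468533-33468632, minus strand): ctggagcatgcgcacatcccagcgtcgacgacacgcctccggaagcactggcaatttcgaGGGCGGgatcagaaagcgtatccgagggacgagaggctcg
Klf13 (chr7:63938916-63939015, minus strand): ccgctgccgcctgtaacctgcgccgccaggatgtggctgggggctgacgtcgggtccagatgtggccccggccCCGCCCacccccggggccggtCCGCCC
Zbtb34 and Zbtb39 hold 3 GC boxes in this stretch, Klf13 holds 2, Zbtb43 holds 1 and Zbtb41 holds 0. Over the 250 bases before the start the counts were 5, 4, 3, 2 and 2 in the same order.

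The deposited values are normalized counts, that is, read counts scaled for each mouse and then rounded. An estimated 10.6 to 31.9 M reads per bigenic mouse and 20.5 to 29.0 M per nontransgenic mouse lay on genes. In these libraries 3 reads are worth 1.94 to 6.20 normalized counts, and every member lay far above that. Values are listed below in a fixed order of mice within each group, in which the second bigenic value is always the mouse with the shallowest library. The transgene transcript measured 29375 to 41550 normalized counts in bigenic and 5 to 80 in nontransgenic mice, and endogenous Tardbp fell by 0.33 on the log2 scale (limma adjusted p = 0.00645). Neuron markers, 13 of 13 with a value, summed to 178885 to 240333 in bigenic and 218314 to 236835 in nontransgenic mice. The sum of 240333 was that of the shallow mouse. Astrocyte markers (10 of 10 with a value) summed to 123363 to 144504 against 152704 to 164193, and microglia markers (9 of 11) to 5268 to 6873 against 7057 to 8321. Oligodendrocyte markers (11 of 11) ranged from 66648 to 88321 and from 67334 to 84490, endothelial markers (10 of 12) from 5795 to 6176 and from 5882 to 7515, and mural and meningeal markers (5 of 10) from 2298 to 2618 and from 2441 to 3317. Choroid plexus markers (5 of 14) summed to 8559 to 19772 in bigenic and 410 to 1281 in nontransgenic mice. At a limma adjusted p below 0.05, 6 neuron markers were lower and 2 higher, and 4 astrocyte, 5 microglia and 1 endothelial marker were lower. Higher were 1 oligodendrocyte and 5 choroid plexus markers, and 0 mural and meningeal markers passed. Of all genes tested, 20.5% were higher and 15.4% lower. No marker with a value was at 0, and the part of these cell types in the results below was not tested.

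Klf13 was the most abundant member in nontransgenic cortex per length, with 642 normalized counts per kilobase of exon. The length merges the exons of all annotated transcripts of a gene, while the count is that of a single deposited transcript. The order of members by this measure is therefore approximate. Klf6 (388), Zbtb7a (384), Zbtb4 (321) and Zbtb16 (260.4) followed, and the mice of Klf6, Zbtb7a and Zbtb4 overlapped. The lowest were Zbtb20 (11.3), Zbtb49 (23.8), Zbtb7b (26.02) and Klf8 (29.8). The value of Zbtb20, known for its role in hippocampal development, rests on an annotated exon length of 30730 bases. Sp3 (235.6) and Sp4 (142) were higher per kilobase than Sp1 (84.8) and Sp2 (52.1).

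**Figure D1:**
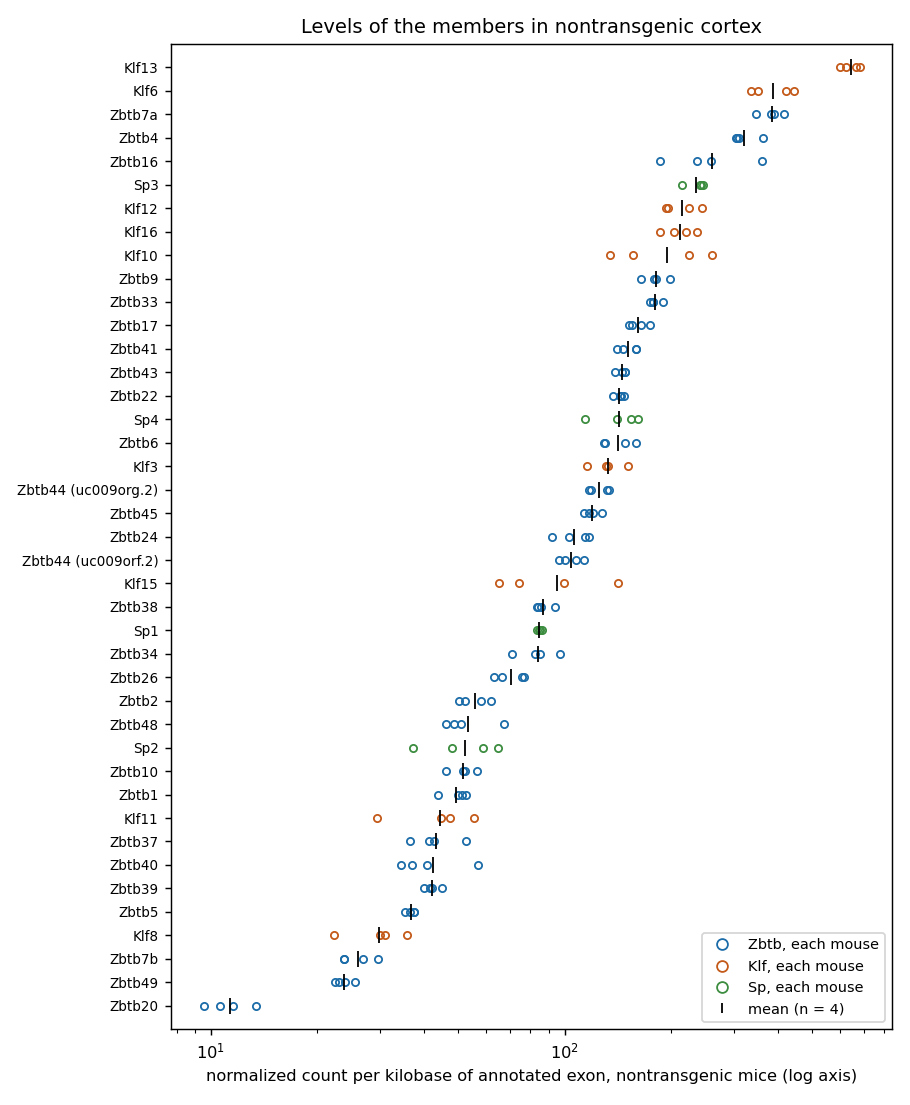
Level of each member in the 4 nontransgenic mice, in normalized counts per kilobase of annotated exon on a log axis, with circles for mice and a tick for the mean. Klf13 lies highest at 642 and Zbtb20 lowest at 11.3. Zbtb11 has no annotated length and is not drawn.

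The nontransgenic mice had a narrow spread for some members and a wide one for others. The coefficient of variation had a median of 9.56% and was 1.30% for Sp1, 2.76% for Zbtb5 and 2.88% for Zbtb22, but 35.9% for Klf15, 30.5% for Klf10 and 28.2% for Zbtb16. Bigenic mice had a median coefficient of variation of 16.03%, and of 7.59% without the shallow mouse. That mouse had the highest bigenic value for 17 members and the lowest for 18.

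The question was whether genes of these families differ between bigenic mice, which express cytoplasmic human TDP-43, and nontransgenic mice. Limma found 7 of the 42 members higher in the bigenic mice (16.7%) and 0 lower at an adjusted p below 0.05. Of all genes tested, 20.5% were higher and 15.4% lower, so the share of members that rose was not above the background. At an unadjusted p below 0.05, 9 members were higher and 2 lower, against 2756 and 2184 of all 10588 genes tested. Limma's voom method also found 0 members lower at an adjusted p below 0.05. Some other alternatives did not: quantile normalization gave 1 lower, removal of a GC content and length trend 2, and array weights 4. Leaving out the shallow mouse gave 3, and leaving out nontransgenic mouse 1 gave 1. The members had a median of 0.12 on the log2 scale, against 0.03 over all genes tested. In the mean 25 were higher and 17 lower, against 5643 and 4945 of all genes tested. The groups did not overlap for 8 members that were higher and 1 that was lower, where 22.3% and 16.7% of all genes tested showed this. All 42 members passed the filter of 10 RPM in at least 1 mouse. This was nearly set in advance, since the deposited gene table holds 10601 genes, the number that the paper kept by such a filter. Of the 42 members, 32 reached it in all 8 mice, 3 (Klf8, Zbtb7b and Zbtb49) only in bigenic and 3 (Klf11, Zbtb2 and Zbtb37) only in nontransgenic mice, and none of those 6 passed the test.

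By family, 6 of 29 Zbtb transcripts rose (20.7%), near the 20.5% of all genes tested, and the median over all 29 was 0.12 on the log2 scale. Of the Klf transcripts 1 of 9 rose (11.1%), with a median of 0.23, and of the Sp transcripts 0 of 4 passed the test, with a median of -0.05. In each family 0 transcripts passed as lower, against 15.4% of all genes tested. The 253 genes with Zfp or Znf symbols, most of them zinc finger genes without a Zbtb, Klf or Sp name, had a median of 0.23, with 93 higher (36.8%) and 13 lower (5.14%). A difference between these families and the members was not tested.

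**Figure D2:**
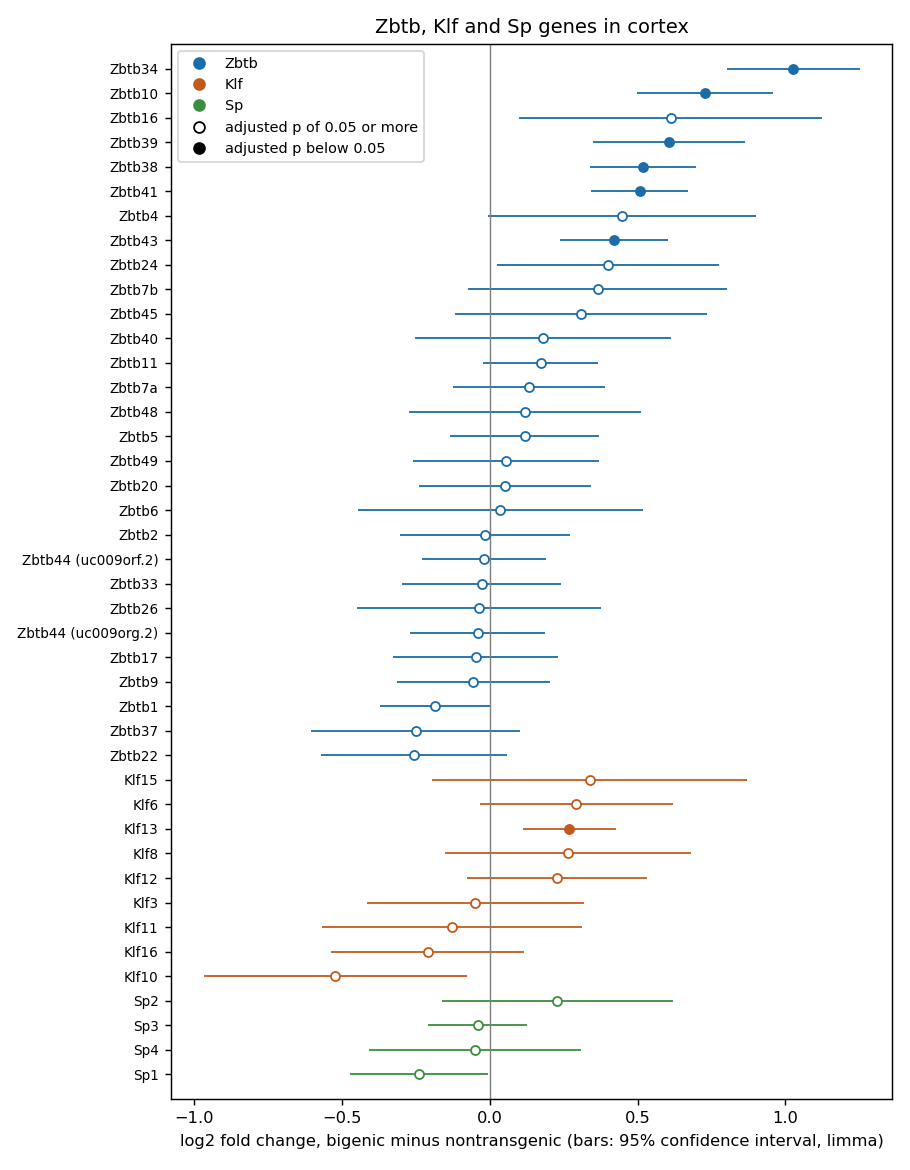
Log2 fold change of each member, bigenic minus nontransgenic, with 95% confidence intervals from limma (4 mice per group), sorted within the Zbtb, Klf and Sp families. Filled points are the 7 members with an adjusted p below 0.05, all to the right of 0, led by Zbtb34 at 1.03.

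Zbtb34 changed most. The bigenic mice measured 1051, 1111, 1194 and 1137 normalized counts, and the nontransgenic mice 639, 562, 545 and 468. The groups lay far apart, with a ratio of 2.04 and a log2 fold change of 1.03 (SE 0.10, limma adjusted p = 8.87e-05). Zbtb43 lies 18.96 kb from Zbtb34 on the same strand of chromosome 2 (mm9, Zbtb34 at 33261628 to 33286844 and Zbtb43 at 33305807 to 33324079), and no exon of either overlaps another gene. It measured 1004, 1148, 970 and 943 against 774, 771, 759 and 723 normalized counts. All bigenic mice were above all nontransgenic mice here too, with a log2 fold change of 0.42 (SE 0.08, limma adjusted p = 0.00359).

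Zbtb10, described in cancer cells as a repressor of Sp genes, measured 591, 567, 670 and 716 normalized counts in bigenic and 388, 419, 343 and 382 in nontransgenic mice. The 2 groups were separate, and the log2 fold change was 0.73 (SE 0.10, limma adjusted p = 0.000701). Its 861-residue protein has 2 fingers. Zbtb10 is on chromosome 3 (mm9, 9250602 to 9285333).

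Zbtb39 measured 375, 333, 366 and 466 against 248, 267, 250 and 238 normalized counts. The nontransgenic mice were tightly grouped below all bigenic mice (log2 fold change 0.61, SE 0.12, limma adjusted p = 0.00325). Exons of Zbtb39 (chromosome 10, 127176594 to 127184391 in mm9) share 60 bases with Gpr182 on the opposite strand. Zbtb41, the member with most fingers, measured 1701, 1834, 1812 and 1836 against 1328, 1332, 1175 and 1224. Both groups had a narrow spread and did not overlap (log2 fold change 0.51, SE 0.07, limma adjusted p = 0.000794). Zbtb41 is on chromosome 1 (141318960 to 141349582 in mm9).

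Zbtb38, one of a small set of Zbtb proteins with Zbtb4 and Zbtb33 (Kaiso) that bind methylated DNA, measured 1233, 1439, 1401 and 1428 normalized counts in bigenic and 1036, 948, 928 and 926 in nontransgenic mice. Every bigenic value was above every nontransgenic value (log2 fold change 0.52, SE 0.08, limma adjusted p = 0.00111). Of its 11070 exon bases on chromosome 9 (96583182 to 96653250 in mm9), 1799 are shared with E030011O05Rik on the same strand, so part of these reads could belong to either.

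Zbtb4 did not pass the test, and 1 mouse set its mean. It measured 2919, 5869, 3005 and 3065 normalized counts in bigenic mice and 2484, 2518, 2476 and 2942 in nontransgenic mice. The shallow bigenic mouse lay far above the other 7 (log2 fold change 0.45, limma adjusted p = 0.111). Without it the change was 0.21 and the adjusted p 0.0375. Zbtb33 had a mean difference of -0.03 on the log2 scale (limma adjusted p = 0.874), with a 95% interval from -0.30 to 0.24.

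**Figure D3:**
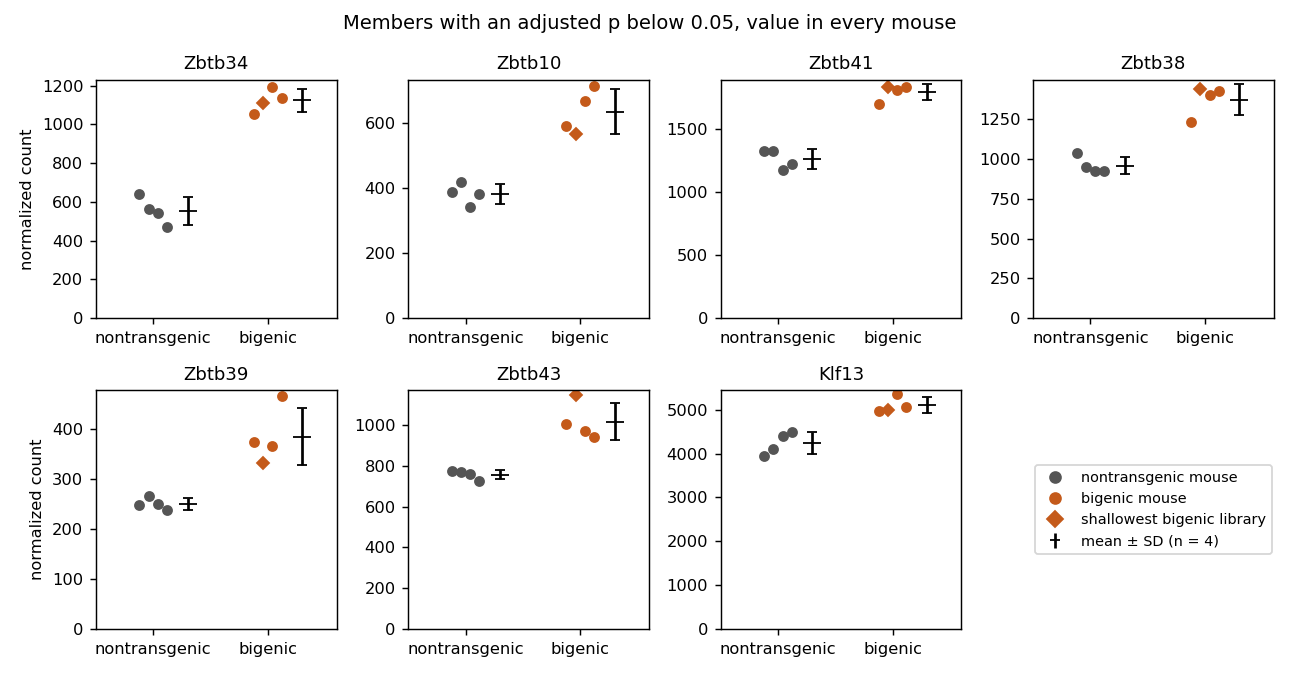
Normalized counts in every mouse for the 7 members with an adjusted p below 0.05, each panel from 0, with grey circles for nontransgenic mice, orange for bigenic mice, a diamond for the shallowest bigenic library and mean ± SD (n = 4) at the side. In each panel all bigenic mice lie above all nontransgenic mice.

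Zbtb24, whose human counterpart is mutated in an immunodeficiency with unstable centromeres, measured 357, 577, 341 and 365 normalized counts in bigenic and 335, 294, 264 and 326 in nontransgenic mice. The groups did not overlap, but the shallow mouse stood apart and the change was not called (log2 fold change 0.40, limma adjusted p = 0.0898). Zbtb45 measured 363, 635, 357 and 318 against 308, 346, 318 and 328, with only the shallow mouse clear of the rest (0.31, limma adjusted p = 0.231). Zbtb16, or PLZF, was singled out after its values were seen. It measured 1536, 2976, 1873 and 1767 against 1202, 949, 1322 and 1840, with a log2 fold change of 0.61 and a limma adjusted p of 0.0624. Nontransgenic mouse 4 exceeded 2 of the bigenic mice. Zbtb16 passed the test without that mouse (0.78, adjusted p = 0.0261) or without bigenic mouse 1 (0.73, 0.0486), and the change was 0.41 without the shallow mouse.

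Zbtb22 measured 276, 436, 297 and 290 normalized counts in bigenic and 382, 385, 392 and 366 in nontransgenic mice. Apart from the shallow mouse, which was the highest of all 8, the bigenic mice were below the nontransgenic mice. With it the log2 fold change was -0.26 (limma adjusted p = 0.182), and without it -0.41 (0.00181). Zbtb6, likewise singled out after its values were seen, went the other way: 938, 434, 879 and 809 against 810, 657, 658 and 750, where the shallow mouse was the lowest of all. Its log2 fold change was 0.04 with that mouse (limma adjusted p = 0.910) and 0.29 without it (0.0257). Zbtb6 and Zbtb26 (-0.04) share 435 exon bases on 1 strand of chromosome 2, so their reads are not fully separate.

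Zbtb7a, a repressor also called LRF, was the most abundant Zbtb member per kilobase when all 8 mice are averaged. It measured 2416, 3462, 2633 and 3030 against 2600, 2366, 2649 and 2838 normalized counts. The groups overlapped, and the log2 fold change of 0.13 had a 95% interval from -0.12 to 0.39. Zbtb11 measured 2034, 2225, 2206 and 2303 against 1888, 1857, 1815 and 2246. Nontransgenic mouse 4 was far above its group, and the log2 fold change was 0.17 (limma adjusted p = 0.148). Without that mouse it was 0.24 (0.0420).

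The other Zbtb members did not pass the test. Those higher in the mean were Zbtb7b, the T cell factor ThPOK (log2 fold change 0.36), Zbtb40 (0.18), the telomere-binding Zbtb48 (0.12), Zbtb5 (0.12), Zbtb49 (0.05) and Zbtb20 (0.05). Those lower in the mean were Zbtb2 (-0.02), both Zbtb44 transcripts (-0.02 and -0.04), Zbtb17, the Myc partner Miz-1 (-0.05), Zbtb9 (-0.06), Zbtb1 (-0.18) and Zbtb37 (-0.25). Zbtb9 shares 2748 of its 2798 exon bases with Ggnbp1 on the same strand, and its value cannot be assigned to Zbtb9 alone.

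Among the Klf genes only Klf13 passed the test. Klf13, a factor related to Klf9 and Klf16 that can bind the Sin3 corepressor, measured 4979, 4988, 5369 and 5059 normalized counts in bigenic and 3953, 4105, 4391 and 4493 in nontransgenic mice. The groups were separate but close, with a ratio of 1.20 and a log2 fold change of 0.27 (SE 0.07, limma adjusted p = 0.0150). The call was lost when a trend on GC content and length was removed from each mouse (log2 fold change 0.13, adjusted p = 0.229). It was also lost without nontransgenic mouse 1 (adjusted p = 0.0505) or mouse 2 (adjusted p = 0.0514). Klf16 was lower in the mean (-0.21, limma adjusted p = 0.284), and passed the test without the shallow mouse (-0.36, 0.00963).

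Klf6, an early response gene, measured 1820, 1582, 2309 and 2367 normalized counts against 1874, 1486, 1776 and 1414. The groups overlapped (log2 fold change 0.29, limma adjusted p = 0.143), and without the shallow mouse the change was 0.40 (0.0175). Klf10, induced by TGF-beta, measured 469, 602, 454 and 478 in bigenic and 514, 999, 594 and 859 in nontransgenic mice. The nontransgenic mice were spread widely, and the log2 fold change of -0.52 did not pass (limma adjusted p = 0.0644), although it did without the shallow mouse (-0.61, 0.0236). Its close relative Klf11, with 86.4% identity in the fingers, had -0.13 (limma adjusted p = 0.636).

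Klf3, Klf8 and Klf12, which bind the corepressor CtBP, did not pass the test, with log2 fold changes of -0.05, 0.26 and 0.23. Klf12 did so without the shallow mouse (0.35, limma adjusted p = 0.0120). Klf15, known as a glucocorticoid target, had 0.34 with the widest 95% interval of the Klf members, from -0.19 to 0.87.

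No Sp gene passed the test with limma or with voom. At an unadjusted p below 0.05, 1 of 4 was lower, as were 2184 of all 10588 genes tested. With limma's array weights Sp1 passed as lower (-0.14, adjusted p = 0.0314). Sp1, the general activator of GC box promoters, measured 646, 480, 645 and 639 normalized counts in bigenic and 717, 702, 710 and 696 in nontransgenic mice. All bigenic mice were below all nontransgenic mice, but the shallow mouse was far below the other bigenic mice, and the log2 fold change of -0.24 had a limma adjusted p of 0.10. Without that mouse the change was -0.13 (0.0959). Sp3 measured 1151, 1158, 1170 and 1068 against 1204, 1194, 1219 and 1065. The groups overlapped, and the interval of its change, from -0.21 to 0.13, was the narrowest among the Sp genes.

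Sp4 measured 786, 581, 888 and 943 normalized counts against 888, 927, 813 and 657. These overlapped as well (log2 fold change -0.05, 95% interval -0.41 to 0.31). Sp2 had 0.23 (limma adjusted p = 0.332). Of the 35 members that did not pass, 17 had a 95% interval wholly within 0.5 on the log2 scale on either side of 0, and the intervals of the other 18 reached past it.

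The shallow bigenic mouse differed from the other 3 bigenic mice along the GC content of the exons. Its log2 difference from their mean ran from -1.01 for Zbtb6, with 39.9% GC, to 0.97 for Zbtb4, with 52.9% GC. Over 41 members the difference and the GC content had a Pearson r of 0.69 and a Spearman rho of 0.69. Over 10297 genes with a GC content these were 0.37 and 0.41. Other mice also differed from the rest of their group along GC content over these genes. Their Pearson r was -0.23, -0.32 and -0.12 for bigenic mice 1, 3 and 4. It was -0.25, 0.03, 0.02 and 0.19 for nontransgenic mice 1 to 4. The points share the same libraries and these values are a description. The difference exceeded 0.5 in size for 13 members in this mouse, for 6 in nontransgenic mouse 4 and for at most 2 in any other mouse. Without the shallow mouse 11 members were higher (26.2%) and 3 lower (7.14%), against 25.3% and 20.2% of all genes. With the GC content and length trend removed, 7 of 41 were higher (17.1%) and 2 lower (4.88%), against 20.3% and 18.3% of all genes. Zbtb34, Zbtb10, Zbtb39, Zbtb38, Zbtb41 and Zbtb43 were higher under both. So was Klf6, with 0.40 (limma adjusted p = 0.0175) without the mouse and 0.37 (0.0312) with the trend removed. Klf13 was higher only without the mouse. Klf16 and Zbtb22 were lower under both, with -0.38 (limma adjusted p = 0.0123) and -0.41 (0.0113) when the trend was removed. Among the bigenic mice the shallow mouse also had the highest neuron marker sum and the lowest sum of every other marker list. The part of base composition or of cell types in the uncalled changes was not tested.

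**Figure D4:**
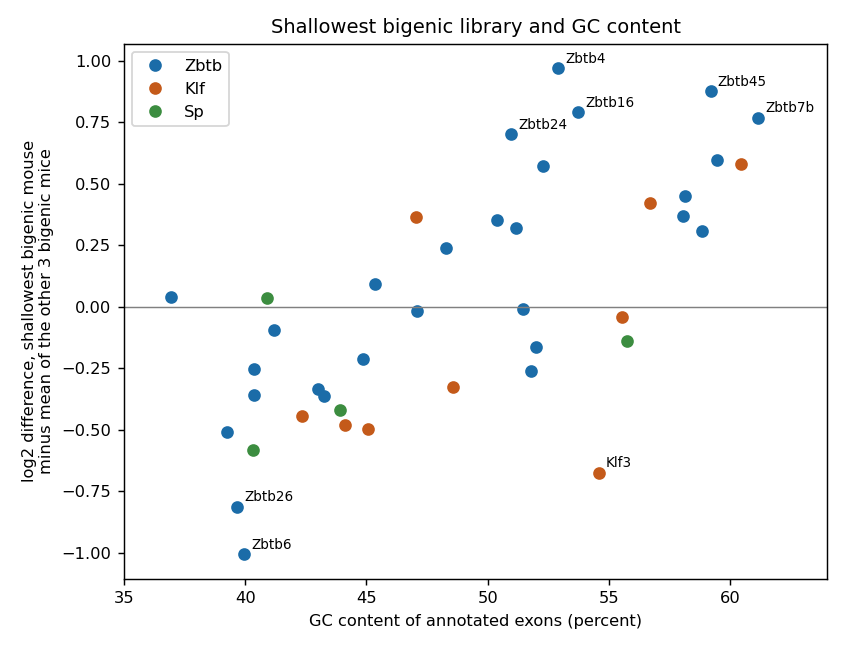
Log2 difference of the shallowest bigenic library from the mean of the other 3 bigenic mice, against the GC content of the annotated exons in percent, with 1 point per member coloured by family. The difference tended to be higher at higher GC content (Pearson r 0.69), from Zbtb6 at -1.01 to Zbtb4 at 0.97, with exceptions such as Klf3, at -0.68 with 54.6% GC.

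Genes that work with these families were taken from lists of their known relatives and partners. Of 8 BTB zinc finger genes that carry other symbols, 3 rose (37.5%) and 2 fell (25%), against 20.5% and 15.4% of all genes tested, and the median log2 fold change was 0.16. Zfp238 (RP58), a repressor needed for cortical neuron development, fell from 10178, 8253, 9479 and 8552 normalized counts in nontransgenic to 4434, 4786, 5517 and 5600 in bigenic mice, a change of -0.84 on the log2 scale (limma adjusted p = 0.000298). The groups were far apart, and its fall was opposite in sign to every member with a Zbtb symbol that passed. These 8 genes are BTB zinc finger genes too and lie outside the members by symbol alone. That no Zbtb member passed as lower thus holds for the symbol rule, not for the whole family. Nor did it hold in every fit. Zbtb22 passed as lower without the shallow mouse (limma adjusted p = 0.00181) and with the GC content and length trend removed (0.0113). Bcl6 also fell (-0.49, limma adjusted p = 0.0209), while Mynn (0.52), Zfp295 (0.45) and Zfp161 (0.37) rose. Bcl6 no longer passed without bigenic mouse 1 or nontransgenic mouse 4 (highest adjusted p 0.056), nor Zfp295 without bigenic mouse 4 or nontransgenic mouse 1, 3 or 4 (highest 0.0685).

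Of 16 corepressor genes, 5 rose (31.25%) and 1 fell (6.25%), against 20.5% and 15.4% of all genes tested, and their median log2 fold change was 0.0043. The number that rose was 3 without bigenic mouse 4 and 2 without nontransgenic mouse 1, 2 or 3. Hdac5 (0.58), Ncor1 (0.40) and Sin3b (0.27) were among those that rose, and Hdac2, a histone deacetylase, fell (-0.30, limma adjusted p = 0.0105). With the GC content and length trend removed, the adjusted p was 0.108 for Sin3b and 0.0883 for Hdac2. Sin3b also failed without bigenic mouse 4 or nontransgenic mouse 1, 2 or 3 (highest adjusted p 0.065). Of 10 coactivator genes, 1 rose and 1 fell (10% each), against 20.5% and 15.4% of all genes tested. Smarca4, the ATPase of SWI/SNF remodelling complexes, rose (0.37, limma adjusted p = 0.0293) and Kat2b, an acetyltransferase, fell (-0.37, limma adjusted p = 0.0110), with a median of 0.11 over the list. Smarca4 did not pass without bigenic mouse 1 or nontransgenic mouse 1, 2 or 3 (highest adjusted p 0.0776).

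Of 12 other zinc finger regulators of GC-rich promoters, 3 rose (25%) and 2 fell (16.7%), near the 20.5% and 15.4% of all genes tested, with a median of -0.04. Maz (0.65), Yy1 (0.45) and Vezf1 (0.23) rose, whereas the activity-induced Egr3 fell (-1.01, limma adjusted p = 0.00632). Egr2 fell by 1.91 on the log2 scale (limma adjusted p = 0.0475) but its groups overlapped, with 15 to 122 normalized counts in bigenic and 61 to 299 in nontransgenic mice. It failed in 6 of 8 fits that each left out 1 mouse and passed only without bigenic mouse 2 or nontransgenic mouse 1. Vezf1 likewise failed in 6 of 8 and passed only without bigenic mouse 1 or 2, and Yy1 failed without nontransgenic mouse 2 or 3. Klf9, the Klf gene outside the rule, had -0.10 (limma adjusted p = 0.338).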

How the data were processed

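Poly(A)+ RNA from 4 bigenic and 4 nontransgenic mice was read as 50-base single-end sequence. Adaptors were removed by the authors using cutadapt, alignment to mm9 used Bowtie 0.12.7, and bedtools gave exon counts that were merged per gene before DESeq2. The authors deposited a table of 28662 transcripts whose whole numbers are scaled and rounded counts, used here as a score and called normalized counts, because what 1 read is worth differs per column. That worth was estimated from the steps between values of up to 300. The counting was not stated to use strand, so reads of overlapping genes cannot be told apart. A second deposited table of 10601 genes holds the authors' fold changes and p-values; it gave symbols only. Columns show a group but no replicate number. Per the methods, nontransgenic controls came from parents heterozygous for the transgenes.

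Genes were kept if some mouse reached 10 RPM relative to the total of its column. Values were transformed as log2(value + 1) and the groups were compared with limma 3.58.1 (lmFit, eBayes with trend) in R 4.3.3, with Benjamini-Hochberg adjustment over 10588 genes and a threshold of 0.05. Fold changes on this scale understate changes of low genes. Every member is named. Values in every mouse are given for members with an adjusted p below 0.05 and a log2 fold change of at least 0.4 in size, for the 2 most abundant per kilobase in each family and for members with a mouse apart by Dixon's criterion. At most 5 called genes per other list are named, by smallest adjusted p. The values of 1 such gene are not reported here. Positions, lengths, GC content and coding sequences came from GENCODE for NCBIM37 (mm9), in which 40 of 41 symbols were found, and promoters from RefSeq for GRCm38.p6. The members and lists were chosen with earlier results of these data known. Alternatives were other pseudocounts, filters and scalings, array weights, voom on approximate reads, removal of a GC content and length trend, a threshold of 0.01 and leaving out each mouse.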

Additional observations from a re-analysis of the deposited data

Results flagged for a closer look

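Dixon's criterion for 4 values was met in 9 of 84 groups of 4 mice, where chance alone gives about 1 in 20. In 6 of the 9 the mouse that stood apart from its group was the shallow bigenic mouse. It was the highest bigenic mouse for Zbtb4 with 5869 normalized counts, for Zbtb45 with 635, for Klf10 with 602, for Zbtb24 with 577 and for Zbtb22 with 436. It was the lowest for Sp1 with 480 normalized counts. Nontransgenic mouse 4 stood apart in the other 3, as the highest for Zbtb4 with 2942 and Zbtb11 with 2246 normalized counts and as the lowest for Sp3 with 1065. The cause was not tested.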

How the results depend on the processing

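Zbtb34, Zbtb10, Zbtb39, Zbtb38 and Zbtb41 kept their direction and passed the test under all 18 alternatives, and so did Zbtb43, with a lowest log2 fold change of 0.33. Klf13 failed in 4 of them. Shares of all genes are given above for the removed trend and for the fit without the shallow mouse. Counts under the other alternatives have no such share beside them and are not read as results about the members or lists. The count of members that rose moved most with limma's array weights, which gave the shallow mouse a weight of 0.0844. With these weights 17 members were higher and 4 lower, comprising 13 Zbtb higher, 1 Zbtb lower (Zbtb22), 4 Klf higher, 2 Klf lower and 1 Sp lower, and in the other lists 2 corepressors were lower, 5 coactivators higher and 2 lower, and 5 GC-rich promoter regulators higher and 4 lower. Rescaling to a common total brought Zbtb16 past the threshold (adjusted p = 0.0485). Quantile normalization gave 1 member lower, a Klf gene, and 2 corepressors lower. With the GC content and length trend removed 2 members were lower, 1 of them a Klf gene, 0 corepressors were lower, 2 coactivators were higher and the members' median was 0.059. Without a filter 1 other BTB gene was higher and 1 lower, 3 corepressors were higher and 2 lower, 0 coactivators were higher and 0 GC-rich promoter regulators were lower. Filtering in every mouse left 1 of these regulators lower, and rescaling to a common total gave 2 coactivators higher. At an adjusted p below 0.01, 0 Klf genes were higher, 0 other BTB genes were higher and 1 lower, 2 corepressors were higher and 0 lower, 0 coactivators were higher and 0 lower, and 1 regulator was higher and 1 lower.

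With each mouse left out in turn, between 6 and 11 members were higher and between 0 and 3 lower. Both counts were largest without the shallow mouse, where 25.3% of all genes were higher and 20.2% lower. The median lay between 0.069 and 0.18. Klf genes numbered 0 to 3 higher and 0 to 2 lower, Sp genes 0 to 0 and Zbtb genes 6 to 8 higher. Other BTB genes numbered 2 to 3 higher and 1 to 2 lower, corepressors 2 to 5 higher and 1 to 2 lower, coactivators 0 to 2 higher and 1 to 2 lower, and GC-rich promoter regulators 1 to 4 higher and 1 to 3 lower.

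Only members that did not pass the test with all mice weighted equally changed sign, and of these changed values only that of Zbtb26 with array weights passed (adjusted p = 0.0421). With array weights these were Zbtb2 (0.076), Sp4 (0.086), Zbtb26 (0.22), Zbtb17 (0.0089), Klf3 (0.084), Zbtb33 (0.11) and the Zbtb44 transcripts (0.043 and 0.065). With the GC content and length trend removed they were Zbtb7a (-0.048), Sp4 (0.032), Zbtb26 (0.059), Sp3 (0.043), Zbtb48 (-0.020), Zbtb49 (-0.014), Zbtb20 (-0.014), Zbtb33 (0.074) and the Zbtb44 transcripts (0.035 and 0.012). With voom they were Zbtb2 (0.014), Zbtb26 (0.041) and Klf3 (0.023), and with quantile normalization Zbtb2 (0.023) and Zbtb6 (-0.012). Leaving out mice moved Zbtb2 between -0.068 and 0.051, Sp4 between -0.15 and 0.095, Zbtb9 between -0.14 and 0.037, Zbtb6 between -0.083 and 0.29, Zbtb26 between -0.14 and 0.17, Zbtb17 between -0.12 and 0.076, Zbtb49 between -0.034 and 0.16, Klf3 between -0.12 and 0.12, Zbtb33 between -0.092 and 0.0997 and Zbtb20 between -0.025 and 0.14. It moved the Zbtb44 transcripts between -0.066 and 0.044 and between -0.097 and 0.048. The cause was not tested.

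No paired analysis was possible because the columns carry no replicate number. Precision is limited by 4 mice per group. The p-values set the group difference against the spread between these mice, which limma moderates by a trend over all genes tested.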
